A study of Homo sapiens with 8 samples.

Results

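Nuclear lamins, 2 lamin-binding proteins and the high mobility group (HMG) proteins were followed at the RNA level in MCF10A cells after DNA damage. The 10 genes were LMNA, LMNB1, LMNB2, LBR, TMPO, HMGB1, HMGB2, HMGB3, HMGA1 and HMGA2, chosen by name for their link to the chromatin of senescent cells, out of 20296 genes that the array names. All 10 were found, and each was well above background on at least 7 of the 8 arrays. MCF10A is a non-tumorigenic human mammary epithelial line. Its p53+/+ form and a p53-/- derivative were collected untreated (0 h) and at 12, 24 and 48 h after 2 h with doxorubicin, named adriamycin (ADR) in the study. The sample labels give 0.5 µg/ml, and the study's methods give another dose. All treated samples carried the same drug exposure, and no vehicle-treated sample was among the samples analysed here. There was 1 array per genotype and time point, so no value has a replicate error. What the labels say of the p53-/- line is its genotype only, with no information on how many clones it holds.

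The nuclear lamina is a mesh of A-type lamins (LMNA) and B-type lamins (LMNB1, LMNB2) that lines the inner nuclear membrane. LBR, the lamin B receptor, tethers lamins and heterochromatin to that membrane. TMPO encodes the LAP2 proteins, which bind lamins. HMGB proteins bend DNA without regard to sequence, and HMGA proteins bind the minor groove of AT-rich DNA. Loss of lamin B1, loss of nuclear HMGB1 and HMGB2 and gain of HMGA proteins in heterochromatin foci are textbook features of cellular senescence, a lasting arrest that p53 can drive. HMGB1 also acts outside the cell, where TLR4 and AGER are among its receptors.

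Levels are given as log2 of the processed signal relative to the 75th percentile of the same array, so a difference of 1 is 2-fold. The level of a gene cannot be set against that of another gene, since probes differ in brightness. A gene is said to have risen or fallen when its level moved at least 2-fold. The technical SD of a log2 difference, taken from 999 probes printed in 10 spots, was 0.06 to 0.16 for these genes except for TMPO at 48 h in p53+/+ cells. It covers spots of 1 array and not cultures, labelling or arrays. The 75th percentile of the signal was 661 to 1015 on the p53+/+ arrays and 879 to 1199 on the p53-/- arrays, and 49.8 to 62.9% of probes were well above background. All arrays lay on 1 slide with the genotypes in separate columns, so that genotype and position on the slide cannot be told apart. Of 10 spike-in transcripts, 0 were well above background on the p53+/+ 48 h array and 6 on every other array. The 48 h values of p53+/+ cells below rest on that array. CDKN1A, a p53 target, stood at −1.14 on the array labelled p53+/+ 0 h, then at 2.54, 2.63 and 2.70, against −2.97, −0.96, −0.64 and −0.48 in p53-/- cells. MDM2, another p53 target, was at −1.66 on the array labelled p53+/+ 0 h, near the −1.33 of untreated p53-/- cells, and at 1.29, 1.49 and 1.76 in treated p53+/+ cells. MDM2 thus separates the treated genotypes and not the untreated ones. Changes in p53+/+ cells are measured from the array labelled p53+/+ 0 h, and comparisons between treated genotypes do not use it.

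LMNB1, the B-type lamin whose loss marks senescent cells, fell in p53+/+ cells. From a log2 level of 1.57 on the array labelled p53+/+ 0 h it went to −0.12 at 12 h, −1.18 at 24 h and −2.91 at 48 h. The p53-/- arrays gave 2.24, 1.92, 1.71 and 1.27 at 0, 12, 24 and 48 h. The 3 treated p53+/+ levels lay below all 4 p53-/- levels, and each later p53+/+ array was lower than the one before it. The fall in p53+/+ cells was 3.21-, 6.71- and 22.3-fold at 12, 24 and 48 h, and the change of −4.48 at 48 h lay at percentile 0.826 of all probes compared. In p53-/- cells the log2 change was −0.31, −0.52 and −0.97, under 2-fold at each time. Treated p53+/+ cells were lower than treated p53-/- cells by 4.11-, 7.44- and 18.2-fold. Averaged over the 3 treated times, this log2 difference was −3.04 (SE 0.67, adjusted p = 0.0257, limma), with the time points standing in for replicates. Over the alternatives tried, limma gave it adjusted p-values from 0.00369 to 0.205.

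LMNB2, the second B-type lamin, had most of its fall by 12 h. The p53+/+ levels were 0.77 at the array labelled p53+/+ 0 h, then −0.80, −1.02 and −0.61. The p53-/- levels were 0.87 at 0 h and 0.65, 0.44 and 0.74 after ADR. The treated genotypes did not overlap, and the treated p53+/+ arrays spanned 0.41 against 2.80 for LMNB1. LMNB2 fell 2.96-, 3.44- and 2.59-fold in p53+/+ cells, and its log2 change in p53-/- cells was −0.22, −0.43 and −0.13. Treated p53+/+ cells were lower on average (log2 difference −1.42, SE 0.20, adjusted p = 0.00591, limma). Among the 10 genes LMNB2 alone passed the adjusted threshold in limma for treated against untreated p53+/+ cells. Its log2 change was −1.57 (SE 0.28). The untreated side is 1 array, and the spread comes from the treated times, which lay close together for LMNB2. LBR and LMNB1 did not pass, with log2 changes of −1.81 (SE 0.41) and −2.97 (SE 0.95). Without the 12 h arrays LBR and HMGA1 passed and LMNB2 did not.

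LMNA, which encodes lamins A and C, did not fall. Its level was 5.73 on the array labelled p53+/+ 0 h, then 6.02, 6.06 and 6.01. The p53-/- levels were 5.75 untreated, then 5.68, 5.32 and 5.41. The 3 treated p53+/+ arrays were above the 4 p53-/- arrays, yet no change from 0 h reached 2-fold in either genotype. The log2 difference between treated genotypes was 0.34, 0.74 and 0.60 at 12, 24 and 48 h, and without scaling between arrays it was −0.12, 0.26 and −0.26, so its direction rests on the scaling. The average of 0.56 did not pass the threshold (SE 0.18, adjusted p = 0.0796, limma), with adjusted p-values from limma of 0.0422 to 0.883 over the alternatives. The other 2 LMNA probes gave average differences of 0.17 and 0.37, which also missed it (adjusted p = 0.671 and 0.234, limma).

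**Figure D1:**
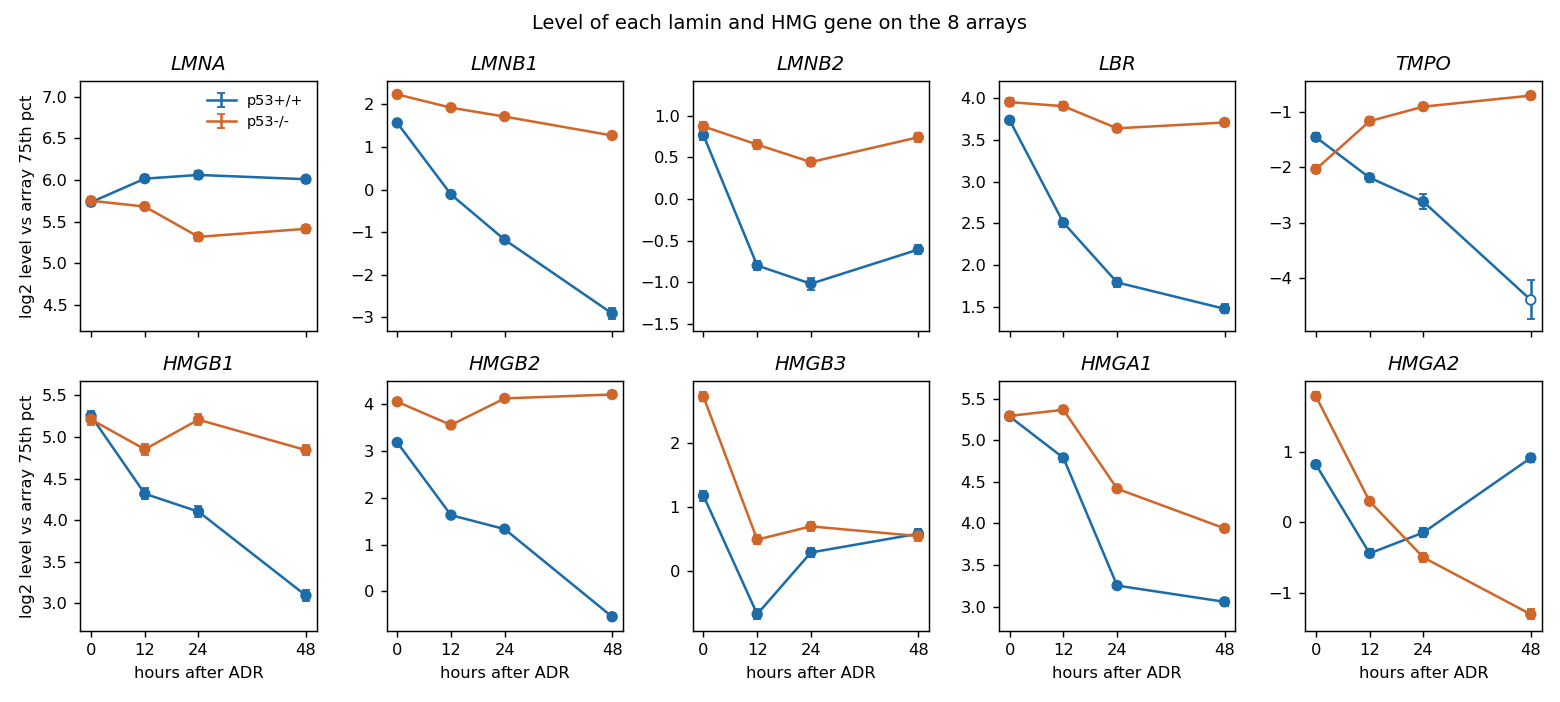
Log2 level relative to the array's 75th percentile (vertical axes, each with its own range) against hours after ADR for the 10 genes. Points are single arrays, joined within a genotype, bars are the technical SD between spots, and the open TMPO point was not well above background; LMNB1 ends at −2.91 in p53+/+ cells and 1.27 in p53-/- cells, while HMGB3 ends at 0.59 and 0.55.

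LBR, the membrane receptor that holds B-type lamins and heterochromatin protein at the nuclear edge, fell in p53+/+ cells at all 3 times. It stood at 3.74 on the array labelled p53+/+ 0 h, then at 2.51, 1.79 and 1.47. Without p53, LBR was at 3.96 untreated, then at 3.91, 3.64 and 3.71. The treated p53+/+ levels lay below every other array, and the treated p53-/- arrays spanned 0.27. The fall was 2.35-, 3.86- and 4.81-fold in p53+/+ cells, and the p53-/- change was at most 1.24-fold. Between treated genotypes the average log2 difference was −1.83 (SE 0.29, adjusted p = 0.00962, limma).

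TMPO fell in p53+/+ cells and rose in p53-/- cells on its main probe, made for transcript NM_003276. The level was −1.46 on the array labelled p53+/+ 0 h, then −2.19, −2.62 and −4.39. Without p53 it was −2.04 untreated, then −1.17, −0.91 and −0.71. The last p53+/+ value was not well above background, so the 48 h fall is given as at least 7.62-fold, and the gap to p53-/- cells at 48 h as at least 12.8-fold. The technical SD of that change was 0.36. At 12 and 24 h the log2 change was −0.73 and −1.16 in p53+/+ cells against 0.87 and 1.13 in p53-/- cells, where it was 1.33 at 48 h. Measured from the p53-/- 0 h array instead, the p53+/+ change was −0.15, −0.58 and −2.35, so the call at 24 h was lost. The gap between treated genotypes at 12 h was 2.03-fold. Its log2 difference of −1.02 went to −0.86, under 2-fold, with normexp background correction. Treated p53+/+ cells were lower by an average log2 difference of −2.14 (SE 0.56, adjusted p = 0.043, limma), a call that the time point as a block removed. A second TMPO probe, for transcript NM_001032283, was well above background on all 8 arrays and gave −1.83 (SE 0.31, adjusted p = 0.0117, limma). It fell in p53+/+ cells, with log2 changes of −1.27, −1.37 and −2.26. Its log2 changes without p53 were −0.13, 0.32 and 0.02, so the rise there was seen with 1 of 2 probes, which are for different transcripts.

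**Figure D2:**
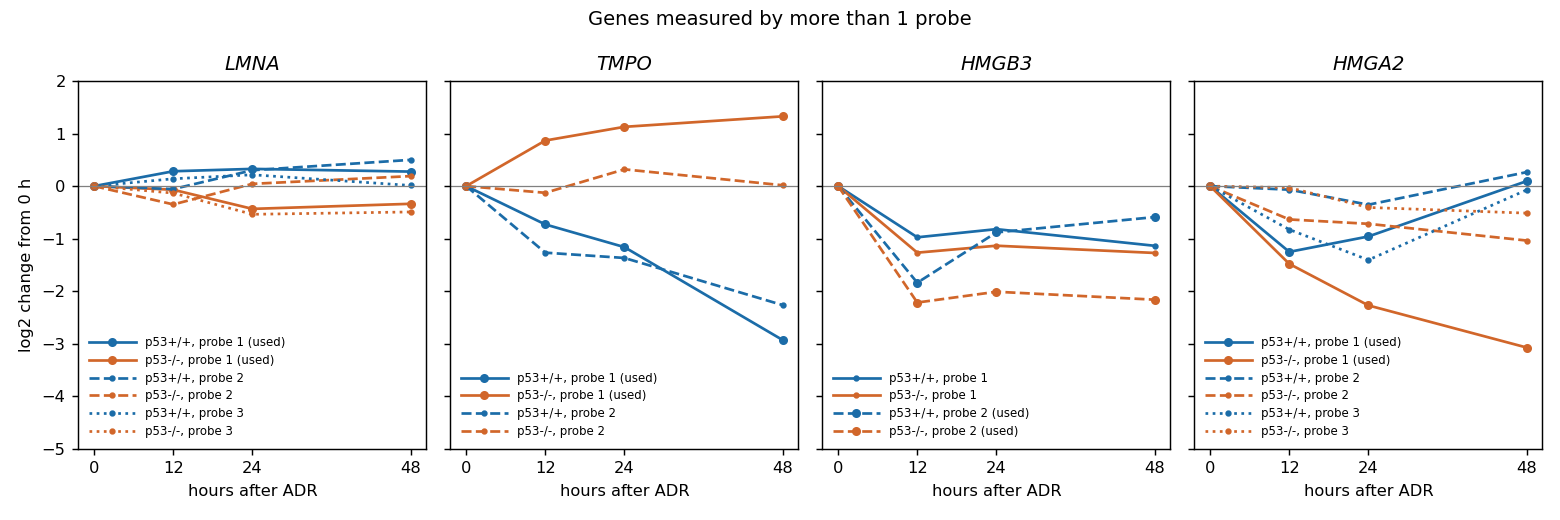
Log2 change from the 0 h array of the same genotype (vertical axis) against hours after ADR for the 4 genes measured by more than 1 probe; each line is 1 probe in 1 genotype. The TMPO probes part in p53-/- cells, at 1.33 and 0.02 at 48 h, and the HMGA2 probes there end at −3.07, −1.04 and −0.51.

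HMGB2, the HMG-box protein that leaves chromatin of senescent cells, fell in p53+/+ cells. It was at 3.18 on the array labelled p53+/+ 0 h, then at 1.63, 1.33 and −0.55. The p53-/- levels were 4.05 untreated and 3.56, 4.13 and 4.21 with ADR. The genotypes did not overlap at any time, the untreated arrays included, where p53+/+ was lower by 0.87 on the log2 scale. The fall was 2.94-, 3.61- and 13.3-fold in p53+/+ cells, and the p53-/- change was −0.50, 0.07 and 0.16. At 48 h treated p53+/+ cells were 27.0-fold below p53-/- cells, at percentile 0.676 of all probes compared. The average log2 difference between treated genotypes was −3.16 (SE 0.57, adjusted p = 0.0144, limma).

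HMGB1, the abundant HMG-box protein that is released as an alarm signal, went the same way on a smaller scale. It was measured by 1 spot per array, at 5.25 on the array labelled p53+/+ 0 h, then at 4.32, 4.10 and 3.10. The p53-/- levels were 5.21 untreated, then 4.85, 5.21 and 4.84. The treated genotypes did not overlap. HMGB1 was 1.91-fold lower at 12 h, under the 2-fold size, and fell 2.22- and 4.46-fold at 24 and 48 h. The average log2 difference between treated genotypes was −1.13 and missed the threshold (SE 0.35, adjusted p = 0.0687, limma), with a range of 0.0239 to 0.287 in the adjusted p from limma over the alternatives.

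HMGB3, a family member best known from stem and progenitor cells, fell in both genotypes. Levels were 1.18 on the array labelled p53+/+ 0 h, then −0.66, 0.29 and 0.59. Without p53 HMGB3 was at 2.71 untreated, then at 0.49, 0.70 and 0.55. The treated arrays overlapped on this probe, and the untreated p53-/- array stood above all 7 others. The log2 change in p53-/- cells was −2.22, −2.01 and −2.16, at percentiles 0.566 to 0.864 of all probes compared, whereas p53+/+ cells fell 3.58-fold at 12 h and then came within 2-fold of their 0 h array. Measured from the untreated p53-/- level instead, the p53+/+ change was −3.37, −2.42 and −2.12. A second HMGB3 probe fell less in p53-/- cells, by 1.27, 1.13 and 1.27 on the log2 scale. In p53+/+ cells its log2 change was −0.97, −0.82 and −1.14, past 2-fold at 48 h and not at 12 h, so the return towards the 0 h level was seen with 1 of 2 probes. The average difference between treated genotypes was −0.51 on the first probe (SE 0.34, adjusted p = 0.336, limma). On the second the treated genotypes did not overlap, and its difference of −0.60 missed the threshold (SE 0.18, adjusted p = 0.0615, limma).

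HMGA1, the AT-hook protein found in most dividing cells, was lower in both genotypes by 48 h. Its levels were 5.28 on the array labelled p53+/+ 0 h, then 4.79, 3.25 and 3.06. Those of p53-/- cells were 5.29 untreated, then 5.37, 4.42 and 3.94. Both series had most of their drop between 12 and 24 h, by 1.53 in p53+/+ and 0.95 in p53-/- cells on the log2 scale, and the treated genotypes overlapped. HMGA1 fell 4.09- and 4.68-fold at 24 and 48 h in p53+/+ cells and 2.55-fold at 48 h in p53-/- cells. The average log2 difference between treated genotypes was −0.87 (SE 0.56, adjusted p = 0.318, limma).

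HMGA2, the AT-hook protein of embryonic and tumour cells, fell at all 3 times in p53-/- cells on 1 of 3 probes and was near its starting level at 48 h in p53+/+ cells. On that main probe, for transcript NM_003483, the level was 0.82 on the array labelled p53+/+ 0 h, then −0.44, −0.14 and 0.91. Without p53 it was 1.78 untreated, then 0.30, −0.49 and −1.29. The p53-/- level was lower on each later array, and the treated genotypes overlapped. The p53-/- fall was 2.79-, 4.83- and 8.41-fold, and the last lay at percentile 0.151 of all probes compared. Measured from the p53-/- 0 h array instead, the p53+/+ change was −2.21, −1.92 and −0.87, past 2-fold at 12 and 24 h. At 48 h HMGA2 was 4.61-fold higher in p53+/+ cells, after being 1.66-fold lower at 12 h. The other 2 probes were both for transcript NM_003484. One gave p53-/- changes of −0.63, −0.72 and −1.04, past 2-fold at 48 h alone, with treated genotypes that did not overlap. The other gave −0.03, −0.41 and −0.51, under 2-fold at each time. All 3 probes were higher in p53+/+ cells at 48 h, by 2.21, 1.07 and 0.93 on the log2 scale. The average over the treated times was 0.61 on the main probe (SE 0.50, adjusted p = 0.446, limma).

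**Figure D3:**
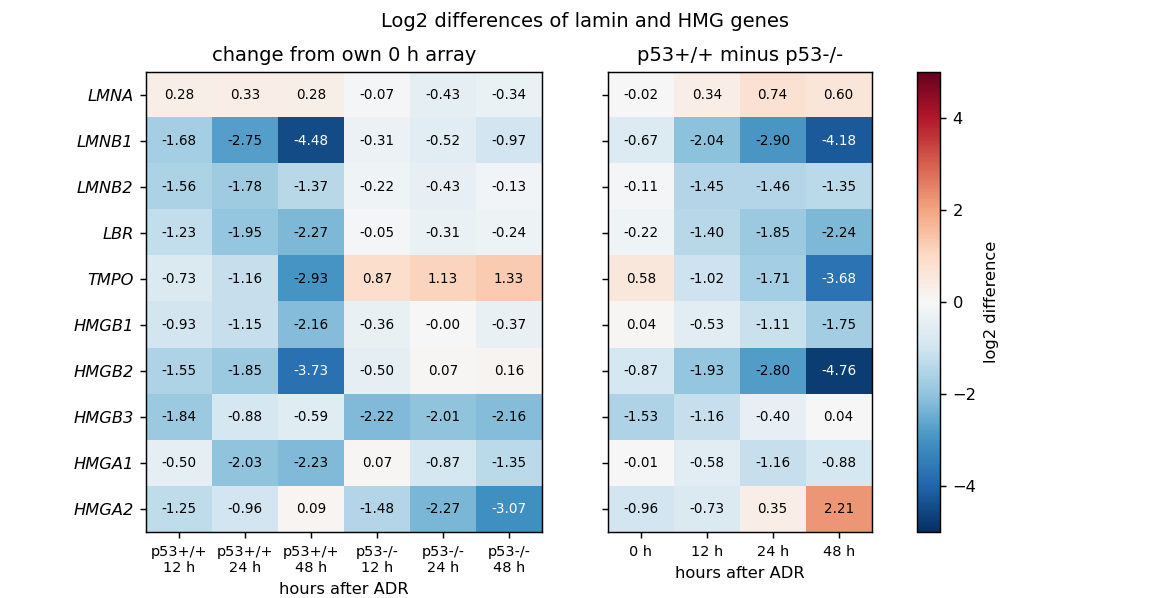
Log2 differences of the 10 genes, blue for lower and red for higher: on the left the change of each treated array from the 0 h array of its genotype, on the right p53+/+ minus p53-/- at each time. LMNB1 and HMGB2 have the largest negative values, −4.48 and −3.73 against 0 h and −4.18 and −4.76 between genotypes at 48 h, and TMPO and HMGA2 change sign between or within genotypes.

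Counted together by the main probe of each gene, in p53+/+ cells 6 of 10 genes fell at 12 h, when 10.4% of all probes compared did, and 7 of 10 fell at 24 h and at 48 h, against 14.6 and 12.5% of probes. The 6 were LMNB1, LMNB2, LBR, HMGB2, HMGB3 and HMGA2. At 24 and 48 h they were LMNB1, LMNB2, LBR, TMPO, HMGB1, HMGB2 and HMGA1. None rose, while 11.8, 14.3 and 15.9% of probes did. LMNB1, LMNB2, LBR and HMGB2 fell at all 3 times, as did 6.28% of probes, and 8.49% of probes rose at all 3. The median log2 change of the 10 genes was −1.24, −1.47 and −2.19, beside 0.05, −0.08 and 0.14 over all probes. Without p53, HMGB3 and HMGA2 fell at 12 and 24 h and HMGA1 joined them at 48 h, which is 2, 2 and 3 genes against 5.28, 5.20 and 7.45% of probes. At all 3 times 2 genes fell, beside 1.85% of probes, and none rose, beside 2.69%. TMPO alone rose there, at 24 and 48 h, when 7.98 and 12.9% of probes rose, and no gene did at 12 h, against 3.80%. The median of the 10 genes in p53-/- cells was −0.26, −0.43 and −0.35, against −0.05, −0.03 and 0.01 over all probes.

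Between treated genotypes, LMNB1, LMNB2, LBR, TMPO and HMGB2 were at least 2-fold lower in p53+/+ cells at all 3 times, and 5.21% of probes were; none was higher at all 3, against 6.20%. Time by time, 6, 7 and 6 genes were at least 2-fold lower at 12, 24 and 48 h, beside 8.67, 13.6 and 14.1% of probes, and HMGA2 at 48 h was the single gene higher. At the 3 times 11.7, 11.4 and 15.5% of probes were higher. The same 5 genes of 10 passed the adjusted threshold in limma as lower, against 7.40% of 28947 probes, and none passed as higher, against 10.6%. At an unadjusted p under 0.05 limma gave 7 of 10 genes and 34.0% of probes. Counting HMGB1, 6 of 10 genes had all treated p53+/+ levels below all treated p53-/- levels, as did 16.4% of probes, and LMNA had them all above, as did 25.1%. The median difference of the 10 genes was −1.09, −1.31 and −1.55 at 12, 24 and 48 h, beside 0.10, −0.03 and 0.16 over all probes. Without the 24 h arrays limma called 0 of the 10 genes, with 5682 probes at an unadjusted p under 0.05. Without the 12 h arrays it called LMNB1, LBR and HMGB2, and without the 48 h arrays LMNB1, LMNB2, TMPO and HMGB2.

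**Figure D4:**
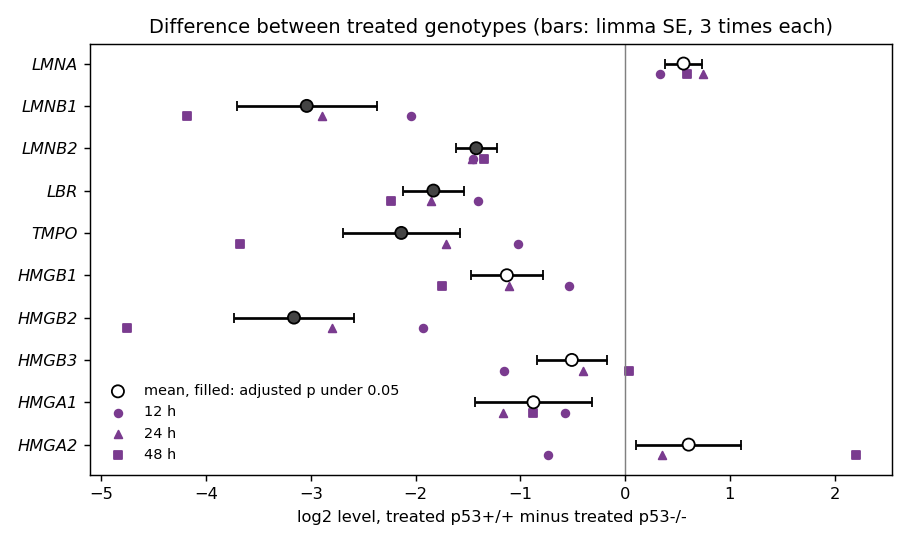
Log2 level in treated p53+/+ minus treated p53-/- cells (horizontal axis). Circles on the bars are limma means of the 3 times with their standard error, filled where the adjusted p was under 0.05, and the small markers below are the 12, 24 and 48 h differences; 5 of 10 genes are filled, all on the negative side, from −1.42 for LMNB2 to −3.16 for HMGB2.

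The interaction of genotype and treatment, which asks whether the change from 0 h itself differed between the genotypes, passed the adjusted threshold in limma for 0 of the 10 genes and for 0.940% of probes as higher and 0.746% as lower. At an unadjusted p under 0.05 there were 3 genes, LMNB2, LBR and TMPO, beside 17.1% of probes. Their interaction was −1.31, −1.61 and −2.71 on the log2 scale (SE 0.39, 0.59 and 1.11, adjusted p = 0.158, 0.23 and 0.284, limma). For treated against untreated cells, limma called 1 gene of 10 in p53+/+ cells, LMNB2, beside 2.81% of probes as lower and 4.18% as higher, and 5 genes at an unadjusted p under 0.05, when 22.9% of probes did. For p53-/- cells it called 0 of 10, beside 0.0484% of probes as lower and 0.00691% as higher, and 2 genes at an unadjusted p under 0.05, beside 9.90% of probes.

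Before treatment, 9 of the 10 genes were within 2-fold between genotypes. HMGB3 was 2.90-fold lower on the array labelled p53+/+ 0 h, and 4.77% of probes were at least 2-fold lower and 4.38% higher there. HMGA2 and HMGB2 were the next, 1.95- and 1.83-fold lower.

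Promoter sequences are shown for 3 of the 5 genes that were lower in treated p53+/+ cells at all times, for a short stretch of LMNB1, and for HMGB3, which fell in both genotypes. They are the 150 bases before the start of transcription, 5′ to 3′ on the strand of the gene, from RefSeq on GRCh38.p14, with capitals for a CCAAT box (CCAAT on either strand), the motif bound by NF-Y. For LMNB1, 30 bases around its box are given. LMNB1 and HMGB3 each have a second RefSeq start, not shown, whose window held no CCAAT box, and the second TMPO window, which overlaps the one shown, held 2.
TMPO, chr12:98515423-98515572, plus strand: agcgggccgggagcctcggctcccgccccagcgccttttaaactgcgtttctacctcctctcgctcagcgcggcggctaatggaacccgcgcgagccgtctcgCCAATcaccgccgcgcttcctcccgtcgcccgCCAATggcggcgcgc
LMNB1, chr5:126776986-126777015, plus strand: tgcctgctccccATTGGcccatggtagtca
LMNB2, chr19:2456960-2457109, minus strand: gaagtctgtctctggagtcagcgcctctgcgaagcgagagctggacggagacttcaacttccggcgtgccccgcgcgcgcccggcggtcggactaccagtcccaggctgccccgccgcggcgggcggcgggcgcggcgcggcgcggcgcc
LBR, chr1:225428822-225428971, minus strand: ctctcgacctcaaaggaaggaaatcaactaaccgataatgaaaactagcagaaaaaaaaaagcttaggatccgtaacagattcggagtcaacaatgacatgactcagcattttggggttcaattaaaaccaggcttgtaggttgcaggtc
HMGB3, chrX:150983185-150983334, plus strand: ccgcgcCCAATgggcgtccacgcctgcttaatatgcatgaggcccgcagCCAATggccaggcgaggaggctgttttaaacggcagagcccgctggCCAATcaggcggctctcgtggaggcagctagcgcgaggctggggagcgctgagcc

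The RefSeq table held 16 windows, from 250 bases before to 50 after a start, for 8 of the 10 genes, without HMGB2 and HMGA2. A CCAAT box lay in 9 of the 16 windows and in 6 of the 8 genes, all but LMNB2 and LBR, and 34.6% of 35116 windows of all genes held one. The cell cycle homology region (CHR), searched as TTTGAA or TTCGAA, was in 3 of the 16 windows, those of LMNB2, HMGB1 and HMGB3, and in 16.4% of all windows. An E2F core, which is TTCCCGC, or else TTCGCGC, or else TTGCCGC, or else TTGGCGC, was in 1 of 16, in LMNA, and in 13.0% of all. The p53 consensus decamer was in 0 of 16 and in 6.63% of all. All motifs were read on both strands, each searched on its own, so that a window can count for several. LMNB2 and LBR, which fell at all 3 times in p53+/+ cells, held no CCAAT box, and LMNA, which did not fall, held one. A match is a description of the letters and says nothing of binding.

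Of 15 lamina partners, 3 were lower and 1 higher in treated p53+/+ than in treated p53-/- cells in limma, when 7.40 and 10.6% of all probes were, and the median difference of the list was −0.37, beside 0.09 over all probes. NRM, which encodes the inner membrane protein nurim, was lower (log2 difference −2.37, SE 0.44, adjusted p = 0.0155, limma). NUP153, a nuclear pore protein that contacts the lamina, had a difference of −1.68 (SE 0.19, adjusted p = 0.00331, limma). The third, SYNE3, was well above background on 1 of 8 arrays. TOR1AIP2 was higher by 0.93. EMD, or emerin, and BANF1, which bridges DNA and the LEM-domain proteins, had differences of −0.45 and −0.81 and did not pass (adjusted p = 0.28 and 0.0594, limma). Of 6 genes that process lamins, 1 was lower, and the median was −0.14. It was ICMT, the methyltransferase that finishes the prenylated tail, with −1.91 (SE 0.27, adjusted p = 0.0061, limma). ICMT was well above background on 5 of 8 arrays, none of them a treated p53+/+ array, so the difference is given as at least 3.15-fold. RCE1 and FNTB, which cleave and farnesylate the same tail, had −0.44 and 0.46 and did not pass. The other HMG genes on the list had a median of −0.66 and 1 of 10 compared called lower, SSRP1 of the FACT histone chaperone at −0.95 (SE 0.20, adjusted p = 0.0238, limma). HMGN2 had −0.75, HMGN3 −0.90 and HMG20B −0.79, which did not pass.

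Of 13 heterochromatin genes, 3 were lower and 1 was higher, against 7.40 and 10.6% of all probes, and the median was −0.40. CBX5, the heterochromatin protein HP1 alpha that LBR binds, was lower (log2 difference −1.17, SE 0.26, adjusted p = 0.0268, limma), together with CBX1 and CABIN1. MACROH2A2, a histone variant of senescent heterochromatin, was higher by 1.31 (SE 0.20, adjusted p = 0.00841, limma). ASF1B, a histone chaperone of dividing cells, was at −3.47 in p53+/+ cells at 48 h against 3.12 in p53-/- cells, and its average difference of −3.86 did not pass (SE 1.13, adjusted p = 0.0604, limma). HIRA, a histone chaperone that acts in senescent foci, had −0.17.

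Of the senescence markers, 4 of 11 compared were higher in treated p53+/+ cells and 2 were lower, against 10.6 and 7.40% of all probes. The median was 0.34. GDF15, a secreted stress cytokine and p53 target, was higher by 7.31 (SE 0.57, adjusted p = 0.000913, limma). IL1A, the cytokine that starts the senescent secretion, was higher by 5.26 (SE 0.21, adjusted p = 0.000113, limma), and its level was also above that of p53-/- cells at 0 h, at −1.16 against −4.38. IL1B, a related cytokine, was higher by 3.94 (SE 0.40, adjusted p = 0.00222, limma), and at 0 h it was already at 2.67 on the array labelled p53+/+ 0 h against −1.39, with an interaction of −0.12 (adjusted p = 0.962, limma). CDKN1A was the fourth. IL6, another secreted factor, was lower in treated p53+/+ cells (log2 difference −3.47, adjusted p = 0.00381, limma), the reverse of 0 h, where it was at 1.97 on the array labelled p53+/+ 0 h and −3.52 without p53. It was then at −1.97, −1.58 and −1.08 in p53+/+ cells and at 1.08 and 2.20 at 12 and 24 h in p53-/- cells, with its highest level there at 48 h. CXCL8, a chemokine, was also above p53-/- cells at 0 h, at −1.25 against −3.41. None of the treated p53+/+ arrays had it well above background, and it stood at −3.08, −3.09 and −3.09 in treated p53-/- cells, so it was at least 2.92-fold lower. The limma call is for a log2 difference of −3.60 that takes the dim values as they are (SE 0.18, adjusted p = 0.000241, limma). CDKN2A had 0.34 and did not pass (adjusted p = 0.29, limma). Whether its probe reads the transcript of p16 was not tested.

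Of 10 proliferation markers, 2 were called lower in treated p53+/+ cells, CCNA2 and MCM2, beside 7.40% of all probes, and the median difference of the list was −3.03. The 3 largest differences, −4.77 for BIRC5, −4.46 for TOP2A and −4.09 for AURKB, all genes of mitosis, did not pass (adjusted p = 0.145, 0.125 and 0.0629, limma). Their p53+/+ 48 h values, −4.76, −6.50 and −6.34, were not well above background, so the size of these differences rests in part on values at the limit of that array. PCNA, the replication clamp, had a log2 change of 1.04, 1.36 and 0.42 in p53+/+ cells and of 1.61 and 1.82 at 12 and 24 h in p53-/- cells, where 48 h was lower than both but past 2-fold, with a difference of 0.36 that did not pass (adjusted p = 0.401, limma). At 48 h, 9 of its 10 genes were at least 2-fold lower, when 14.1% of probes were. MKI67 was at 0.71, −0.29, −0.26 and −4.28 in p53+/+ cells at 0, 12, 24 and 48 h and at 1.64, 0.96, 1.44 and 1.77 in p53-/- cells. The summed level of the list, in multiples of the 75th percentile, reached 112 on the array labelled p53+/+ 0 h and 47.3 to 104 on the treated p53+/+ arrays. It was 128 on the p53-/- 0 h array and 137 to 165 on the treated p53-/- arrays. The sum adds probes of unlike brightness. PCNA and TYMS made up most of it on the treated p53+/+ arrays, at log2 levels of 4.74 and 4.28 at 48 h. Counted by gene, 6, 6 and 8 of the list's 10 fell at 12, 24 and 48 h in p53+/+ cells, against 10.4, 14.6 and 12.5% of probes. Those that rose were 1, 1 and 0, against 11.8, 14.3 and 15.9%. At 48 h 7 of its 10 genes were well above background in p53+/+ cells and 10 of 10 in p53-/- cells. The part of this shift in the lower lamin and HMGB levels was not tested. In RNA from a whole culture, fewer cells of a kind and less RNA per cell cannot be told apart.

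**Figure D5:**
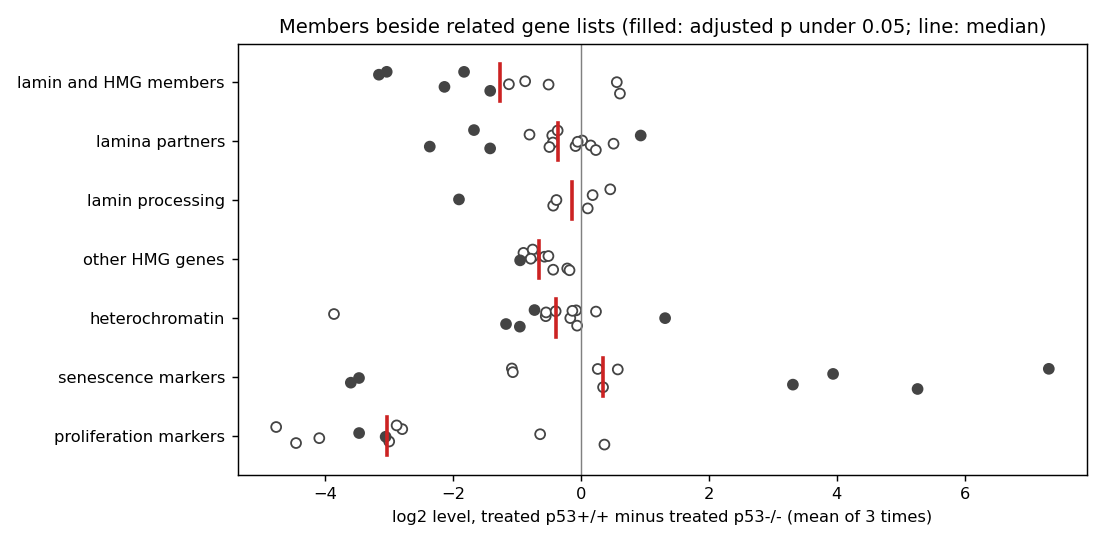
Log2 difference of treated p53+/+ minus treated p53-/- cells, averaged over 12, 24 and 48 h (horizontal axis), for the 10 lamin and HMG genes and 6 related lists. Each circle is a gene, filled where the adjusted p from limma was under 0.05, and the red line is the list's median, −1.27 for the 10 genes and −3.03 for the proliferation markers.

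For receptors and partners of extracellular HMGB1, 1 of 5 compared genes was called lower, against 7.40% of all probes, and the median difference was −0.16. TLR4 was at −1.75 on the array labelled p53+/+ 0 h, then at −6.55, −6.28 and −6.37, against −1.25, −0.99, −0.32 and 0.11 in p53-/- cells. It was not well above background on the treated p53+/+ arrays, where it was at least 18.8-fold lower than in treated p53-/- cells. The limma call is for a log2 difference of −6.00 that takes these dim values as they are (SE 0.30, adjusted p = 0.00025, limma). AGER and CXCR4 had 0.48 and −1.65 and did not pass. Of the regulators of HMGA2 mRNA, LIN28A, LIN28B and IGF2BP1 were not well above background on any array, and IGF2BP2, IGF2BP3 and DICER1, with differences of 0.87, −0.58 and 0.21, did not pass.

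Each gene's closest neighbours were taken by Pearson's r of the log2 level over the 8 arrays among 11819 genes seen on all arrays. These arrays share 1 slide and differ together in genotype and time, and r is given as a description. LMNB1 was most like TEDC1 (0.994), VIM (0.992) and CHEK1 (0.992), and HMGB2 most like STIL (0.996), ECT2 (0.992) and CBR3 (0.990). LBR had CDCA4 (0.996), TMPO had RFC2 (0.996) and UBE2T (0.991), and HMGA1 had PSMA7 (0.995). LMNB2 had EP300 (0.994), HMGB1 had SP100 (0.991), LMNA had CERS5 (0.995), HMGB3 had DKK1 (0.978) and HMGA2 had DHRSX (0.987).

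The labelled cell type was checked with its markers. Of 7 basal epithelial genes 6 or 7 were well above background on each array. In treated p53+/+ cells 5 were called higher, when 10.6% of all probes were, KRT5, KRT14, KRT17, CDH3 and ITGB4. Their list had a summed level of 182 to 284 on the treated p53+/+ arrays and 48.3 to 69.3 on the treated p53-/- arrays. Of 5 luminal genes, 3 or 4 were well above background and GATA3 was called higher, with sums of 66.5 to 94.9 against 39.1 to 64.2. All 3 fibroblast genes compared were called lower in treated p53+/+ cells, COL1A1, PDGFRB and DCN, when 7.40% of all probes were. The list had sums of 4.31 to 5.22 against 52.0 to 67.1, and COL3A1 was not well above background on any array. These fibroblast sums are almost all DCN, at a log2 level of 5.75 on the array labelled p53+/+ 0 h. COL1A1 was at −3.21 there and PDGFRB at −5.85. Most of the leukocyte sum is CD14 in the same way, at 1.51 there, with PTPRC at −3.74 and CD3E at −5.32. Leukocyte sums were 1.82 to 3.30 against 4.02 to 6.10, with CD14 called lower, and endothelial sums 0.110 to 0.143 against 0.303 to 0.422, with PECAM1 called lower. On the arrays labelled p53+/+ 0 h and p53-/- 0 h the sums were 81.8 and 81.2 for basal and 54 and 58.1 for fibroblast genes. They were 39.7 and 40.7 for luminal, 2.94 and 2.68 for leukocyte and 0.328 and 0.317 for endothelial genes. Like MDM2, these sums separate the treated genotypes and not the untreated ones. CDKN1A differed between the untreated arrays too, at −1.14 on the array labelled p53+/+ 0 h against −2.97 on the p53-/- 0 h array. None of the treated p53+/+ arrays had COL1A1, PDGFRB or PECAM1 well above background. COL1A1 was thus at least 2.85-fold and PECAM1 at least 6.58-fold lower there, and no fold can be given for PDGFRB. The part of these shifts in the lamin and HMG results was not tested.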

How the data were processed

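RNA of MCF10A p53+/+ and p53-/- cells was hybridised to 8 one-colour Agilent SurePrint G3 Human GE arrays, grouped from the sample labels. The authors deposited, for each array, a processed intensity per spot (linear, background corrected by Feature Extraction 10.7.3.1) and flags, on a design of the hg19 build. The deposited series table held the same values (503808 of 503808 equal). No normalization between arrays is stated in the study's methods. Non-uniform and outlier spots were dropped, which kept 42391 probes. Spot values, as log2 minus that of the array's 75th percentile, were averaged per probe. Probes count as well above background where most spots do. Names came from RefSeq accessions (27227 of 42391, or 64.2%), and a gene took its probe with the highest mean.

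A 2-fold size rule was used without a test, over probes well above background on an array of the comparison. The 28947 probes that were so on 1 array or more entered a limma fit with 4 means (each genotype, untreated and treated), 4 residual degrees of freedom and Benjamini-Hochberg adjustment over all of them at 0.05, after a test on simulated data. The spread in it comes from time points, not cultures. Members, lists and tests were chosen with earlier results of these data known. Genes named are the 10 members, the 3 largest differences and the defining genes of each list, and of the 3 closest neighbours those given; other list genes were named after their values were seen. One gene of the label check is not reported here. No protein sequence was used here. The alternatives are in the closing section. The number of arrays limits the precision. Fits ran in limma 3.58.1 under R 4.3.3, tables in pandas 2.3.3 and numpy 2.4.6 under Python 3.11.15, and plots in matplotlib 3.10.9.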

Additional observations from a re-analysis of the deposited data

Results flagged for a closer look

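Among the 10 genes and the lists, 104 genes were looked at. Of these, 29 moved one way from 0 h on every treated p53+/+ array and the other way on every treated p53-/- array. This rule has no size limit, and its share over all probes was not computed. For 3 more genes the interaction of genotype and treatment in limma passed the adjusted threshold. The value given is that interaction on the log2 scale, measured with the array labelled p53+/+ 0 h. Among the lamin and HMG genes these were LMNA at 0.58 (adjusted p = 0.473, limma) and TMPO at −2.71 (adjusted p = 0.284, limma), neither past the threshold. Both rest on the main probe. A second LMNA probe had log2 changes of −0.06 at 12 h in p53+/+ cells and 0.19 at 48 h in p53-/- cells, while the third kept opposite directions. The second TMPO probe had −0.13 at 12 h and 0.32 at 24 h in p53-/- cells. Without scaling, the LMNA change in p53+/+ cells was −0.03, 0.01 and −0.34. CXCL8 at −5.76, IL6 at −8.97 and TLR4 at −5.50 moved in opposite directions and passed (adjusted p = 0.00483, 0.0116 and 0.0173, limma). CXCL8 and TLR4 were not well above background on the treated p53+/+ arrays, so their values there are at the limit of the array. MDM2 at 3.48, DCN at −3.57 and GDF15 at 6.59 passed without opposite directions at every time (adjusted p = 0.0316, 0.0164 and, after rounding, 0.05, limma).

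The other opposite movements did not pass the threshold. Around the lamina they were BANF1 at −0.92, SYNE1 at 0.49, SYNE2 at 2.69, TOR1AIP1 at −0.76, TOR1AIP2 at 1.31, NRM at −2.41 and ICMT at −1.97, the last not well above background on the treated p53+/+ arrays. In chromatin they were TFAM at −1.15, CBX1 at −0.69, CBX5 at −1.21, UBN1 at −0.56, ASF1B at −5.01 and H3-3B at −0.57. CDKN2A had 0.54, and the proliferation genes MCM2 and TYMS had −3.46 and −1.04. AGER had 0.92, CXCL12 0.35, CXCR4 3.06 and IGF2BP2 1.80. Of the cell type markers, EGFR had 1.02, ITGB4 3.09, GATA3 2.60 and CDH5 −0.66. The groups hold 1 array each.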

How the results depend on the processing

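No call of a lamin or HMG gene turned its direction under any alternative. A 3-fold rule left 2 of 6 falls at 12 h in p53+/+ cells, 1 of 2 falls at 12 h and 0 rises at 24 and 48 h in p53-/- cells, and 2 of 5 genes lower in treated p53+/+ cells at all times. Averaging a gene's probes gave 1 fall at 12 h and 0 rises at 24 and 48 h in p53-/- cells, probes well above background on all 8 arrays gave 0 rises at both times, normexp gave 0 at 24 h, and no scaling gave 1 rise at 12 h. With the p53-/- 0 h array as baseline, 8 genes in place of 7 fell at 24 h and at 48 h in p53+/+ cells. The 5 genes lower in treated p53+/+ cells at all times became 4 with normexp and with probes well above background on all 8 arrays, and 6 without scaling. Of the limma counts, the interaction went from 0 to 1 gene without scaling. Treated against untreated p53+/+ cells, 1 gene, gave 2 with median scaling, without scaling, with a signal floor, with the all-array filter and with the probe mean, 3 with normexp, and 0 to 2 with a treated time left out. The treated genotypes, 5 genes, gave 0 to 4 with a treated time left out, 4 with time as a block and 5 to 7 in the other alternatives. The cause was not tested.

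Over all probes, the 5201 limma calls between treated genotypes ranged from 3595 to 12536, and from 292 to 2670 with a time left out, and 58.8% of them were higher in p53+/+ cells, against 45.7% with median scaling, 48.3% with quantile normalization, 14.5% without scaling, 73.3% with normexp, 71.6% with a floor, 78.4% without a filter and 70.9% without the 24 h arrays. Without scaling the median treated difference of all probes was −0.32, −0.50 and −0.68. The 488 interaction calls ranged from 399 to 1296 and from 0 to 42 with a time left out, the 2023 calls in p53+/+ cells from 1507 to 2886 and from 86 to 1862, and the 16 in p53-/- cells from 4 to 51, with 0 when a time was left out. By size, the 2574, 3577 and 3116 probes that fell in p53+/+ cells at 12, 24 and 48 h ranged from 1229 to 4103, 1699 to 5602 and 1562 to 6609, and the 2914, 3486 and 3947 that rose from 1680 to 4809, 2163 to 4722 and 2059 to 6954. In p53-/- cells the 1326, 1351 and 2025 falls ranged from 397 to 2647, 387 to 2390 and 636 to 3321, and the 953, 2075 and 3513 rises from 289 to 2178, 756 to 3897 and 1075 to 6500. Between treated genotypes at all 3 times, 1255 lower ranged from 554 to 2921 and 1492 higher from 721 to 1965. No paired analysis was possible because no group holds a second replicate, apart from the block by time point given above.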
